A study of Mus musculus with 10 samples.

Results

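The genes examined were those of the mouse proteasome, taken as every symbol of the deposited series table that begins with Psma, Psmb, Psmc, Psmd or Psme followed directly by a digit, without Psmb8 and Psmb9. The rule gave 42 of the 21193 symbols in that table. Probes in the scanner tables were matched for 41 of them through transcript accessions, and 40 passed the filter on dim probes and were tested among 17846 genes. Of the 42 genes, 41 encode a subunit, an assembly chaperone or an activator. The exception, Psmc3ip, shares the prefix only and encodes a partner of the meiotic recombinase.

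Liver RNA came from 10 male C57BL/6NCrSlc mice, with 1 Agilent one-colour array for each mouse. The 5 mulberry mice drank mulberry leaf extract during 4 weeks on a diet high in cholesterol. The 5 control mice ate the same diet without the extract, so every mouse carried the dietary load and no mouse on a plain diet was measured. The study asked how the extract acts on hepatic gene expression in hypercholesterolaemia, and its title names the suppression of cholesterol synthesis.

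The proteasome is the protease that breaks down proteins tagged with ubiquitin. Its 20S core is a stack of rings in which alpha subunits form the gate and certain beta subunits cut the substrate, and its 19S cap recognises, deubiquitinates and unfolds the tagged protein with a ring of ATPases. In cells exposed to interferon gamma the inducible beta subunits Psmb8, Psmb9 and Psmb10 replace the constitutive catalytic ones, and the activator Psme1 with Psme2 (PA28 alpha and beta) is raised. In liver, hepatocytes carry mainly the constitutive form, and blood-derived cells are rich in the inducible one. The transcription factor Nfe2l1 (NRF1) restores proteasome gene transcription when proteolysis falls short, and it binds antioxidant response elements.

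Between 54.4% and 62.3% of probes were well above background on the 10 arrays, and Pearson's r between arrays was 0.940 to 0.993 over the 17846 genes tested. Hepatocyte markers such as albumin (Alb) were bright on every array. Mulberry 1 and mulberry 5 stood apart, with the highest mean levels of both macrophage and lymphocyte markers among the 10 livers. Both were also the highest mulberry arrays for the inducible proteasome genes, so leaving both out lowers the mulberry mean by construction. The differences of these genes are given with and without them, with all control arrays kept. The deposited sources disagree on the numbering of the control livers. Over 11149 genes, each taken relative to its own mean, columns 1 to 5 of the authors' series table for control correlated best with the scanner arrays of control 5, 1, 2, 3 and 4 (r = 0.890 to 0.971). The 5 mulberry columns correlated best with the arrays of their own number (r = 0.940 to 0.985). These correlations are across genes, which are not independent replicates. The groups hold the same arrays in both sources, and control numbers below are those of the scanner tables unless the series table is named. Fewer cells of a type and less RNA per cell cannot be told apart in whole liver.

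A level is the log2 processed intensity of a probe after subtraction of its array's 75th percentile, so a level of 0 equals that percentile. Levels of different genes come from different probes and are not compared. A difference is the mulberry mean minus the control mean in log2 units, with its standard error (SE) from the limma fit, and adjusted p-values are Benjamini-Hochberg values from limma over all 17846 genes.

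None of the 40 proteasome genes passed the test between mulberry and control livers. The differences ran from -0.24 for Psma4 to 0.12 for Psme1, with a median of -0.04, against a median of -0.02 over all genes tested. The smallest adjusted p of a proteasome gene was 0.897 (limma). The share of all genes past the threshold of 0.05 was 0%, and the smallest adjusted p of any gene was 0.506. At an unadjusted p under 0.05, 0 of the 40 were found, against 5.18% of all genes, and their smallest unadjusted p in limma was 0.0825. In 0 of the 40 did the arrays of the groups fail to overlap, against 0.728% of all genes.

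The fitted intervals show how large a difference the arrays leave room for under the scaling used here for the levels. They do not cover the choice of scaling. Of 31 constitutive subunits of the core and cap, 30 had a 95% confidence interval that lay within 1.5-fold in either direction. The exception was Psmd13, a lid subunit of the cap, whose interval reached down to 0.658-fold. The highest upper bound among the 31 was 1.38-fold, for Psmd3. Over all 40 proteasome genes 35 intervals lay within 1.5-fold (87.5%), against 46.7% of all genes tested, which were not matched to them for brightness. After median scaling Psma4 differed by -0.39 ± 0.14, Psmd8 by -0.35 ± 0.13 and Psmb7 by -0.27 ± 0.15 (SE). After quantile normalization these differences were -0.174, -0.135 and -0.050. The median over the 40 genes was -0.19 after median scaling and 0.02 after quantile normalization. The counts within 1.5-fold are therefore not shown for other scalings.

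**Figure D1:**
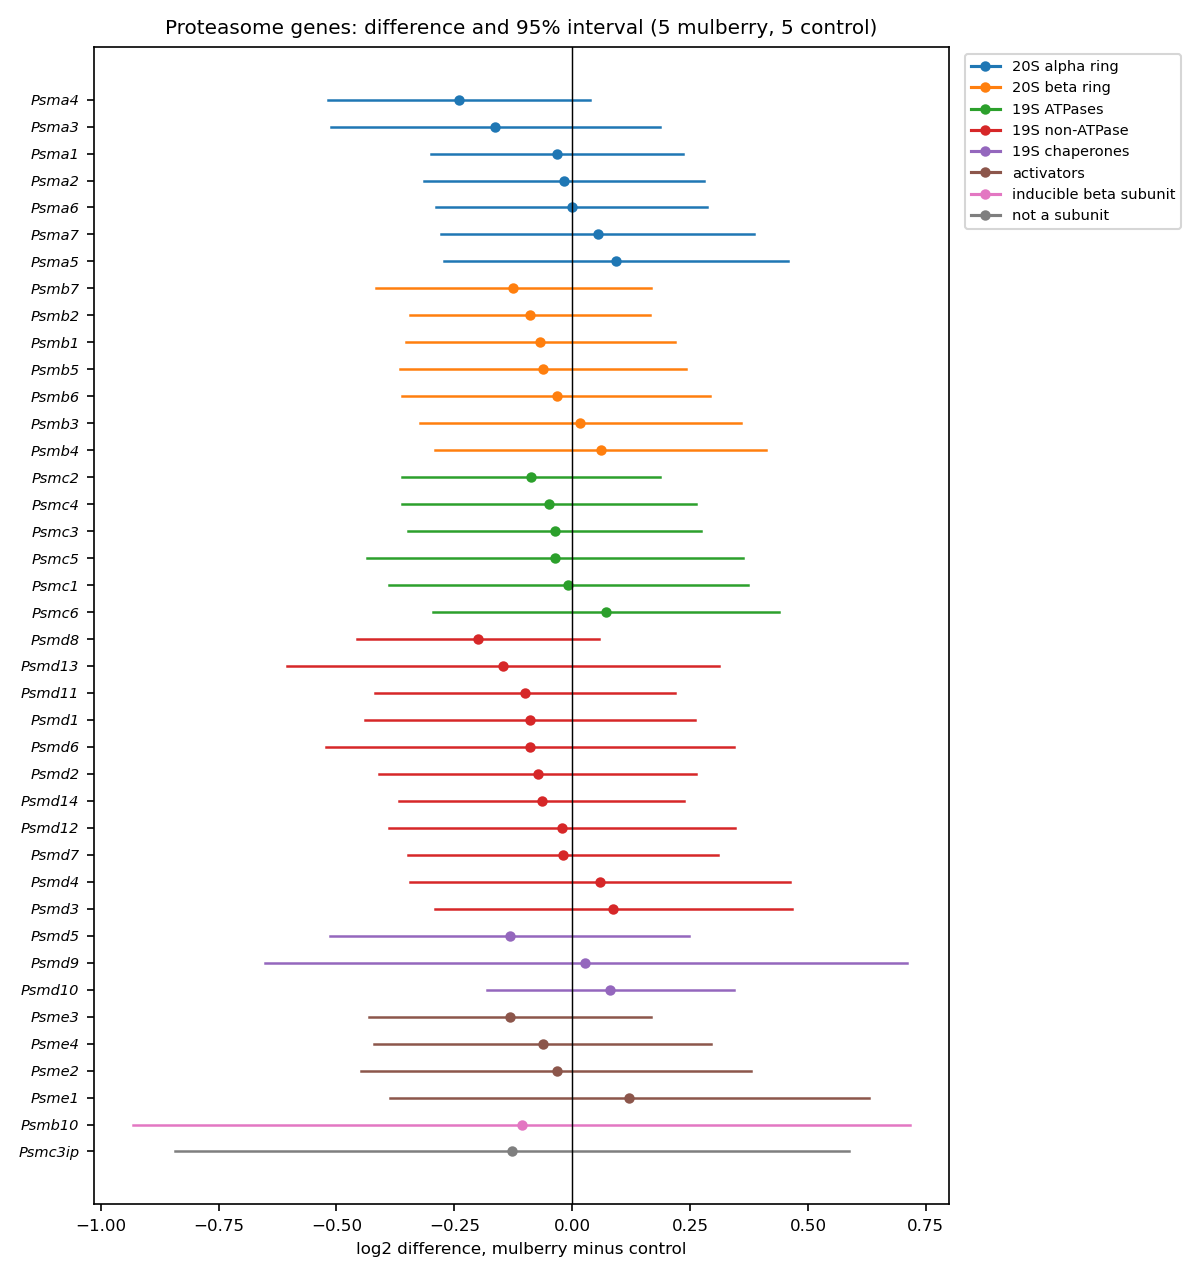
Difference between the means of 5 mulberry and 5 control livers (x axis, log2 units, mulberry minus control) for the 40 proteasome genes tested, coloured by role, with dots for the fitted difference and lines for its 95% confidence interval. Every interval crosses 0, and Psmb10 and Psmc3ip have the widest intervals.

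Of the 40 genes, 10 had a higher and 30 a lower mean in mulberry livers, against 47% of all genes with a higher and 53% with a lower mean. This split turned with the scaling of the arrays. After quantile normalization 26 of the 40 had a higher mean in mulberry livers, 22 did so in the authors' series table, and 0 did so after scaling to the array median. Scaling to the median also moved the median difference of all genes to -0.17. Within the first scan day (mulberry 3 and 5 with control 2, 3 and 5) the median of the proteasome differences was 0.09, and within the second (mulberry 1, 2 and 4 with control 1 and 4) it was -0.20. On the only slide that held both groups (mulberry 1 with control 1 and 4) the median was -0.36, where that of all genes was -0.25. Without mulberry 1 and mulberry 5 the median was 0.07, with 30 of the 40 higher, and without mulberry 3 it was -0.13, with 4 of the 40 higher.

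Some promoter sequences are shown here because the constitutive and the inducible parts of the complex are known to be switched by different factors. RefSeq promoter windows of assembly GRCm38.p6, each with 250 bases before and 50 after a transcription start, were available for 35 of the 42 genes in 38 windows. An antioxidant response element was searched as TGACNNNGC on both strands. It was found in 6 of the 38 windows (15.8%), against 12.4% of 32851 windows of all genes. An interferon-stimulated response element was searched as GAAA, any 2 bases and GAAA again, on both strands, and found in 4 windows (10.5%), those of Psmb3, Psmd4, Psmd9 and Psme1, against 3.44% of all windows. The windows of the inducible Psmb10 and Psme2 did not hold these letters. The box CCAAT, on either strand, was in 14 windows (36.8%), against 37.4%, and the gamma-activated site TTCNNNGAA was in 1 (2.63%), that of Psmd2, against 8.3%. Below are 175 bases for 2 catalytic subunits and 1 activator, from 150 bases before to 25 after the start, 5′ to 3′ on the gene's strand. Capitals mark the motif match, and no matches overlapped in these windows. In Psmb5 (chr14:54617971-54618145, minus strand) the antioxidant match begins 47 bases before the start, and in Psmb6 (chr11:70525207-70525381, plus strand) it begins 9 bases before it. In Psme1 (chr14:55578344-55578518, plus strand) the interferon-stimulated match lies on the opposite strand and begins 9 bases after the start. A match of letters is a description and does not show that a factor binds.
Psmb5: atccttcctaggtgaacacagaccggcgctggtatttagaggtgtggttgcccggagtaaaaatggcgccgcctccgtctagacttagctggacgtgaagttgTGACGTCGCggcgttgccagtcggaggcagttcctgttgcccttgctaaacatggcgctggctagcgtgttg
Psmb6: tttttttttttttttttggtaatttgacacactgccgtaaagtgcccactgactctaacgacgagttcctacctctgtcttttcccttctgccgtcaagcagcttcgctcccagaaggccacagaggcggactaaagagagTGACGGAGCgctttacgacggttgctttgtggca
Psme1: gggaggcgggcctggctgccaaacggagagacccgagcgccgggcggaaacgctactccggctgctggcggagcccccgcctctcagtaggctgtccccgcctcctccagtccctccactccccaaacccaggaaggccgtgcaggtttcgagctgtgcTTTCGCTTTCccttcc

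The catalytic subunits of the core had means in mulberry and control livers that differed by less than 1 standard error. Psmb5, the chymotrypsin-like subunit, had levels of 4.73, 5.05, 5.29, 4.90 and 4.82 in mulberry 1 to 5, against 5.21, 4.92, 4.94, 4.95 and 5.07 in control 1 to 5. Mulberry 3 was the highest and mulberry 1 the lowest of the 10, with the control livers between them. The difference was -0.06 ± 0.14 (SE), with an adjusted p of 0.950 in limma. Psmb6, the caspase-like subunit, had levels of 6.17, 6.47, 6.70, 6.10 and 6.21 in mulberry livers and 6.49, 6.15, 6.29, 6.52 and 6.36 in control livers. Its groups overlapped across nearly their whole range, with a difference of -0.03 ± 0.15. Psmb7, the trypsin-like subunit, had levels of 3.89, 4.17, 4.42, 4.30 and 4.06 in mulberry livers and 4.29, 4.12, 4.36, 4.32 and 4.38 in control livers. Mulberry 1 and mulberry 5 were its lowest arrays, and the difference was -0.13 ± 0.13 (adjusted p = 0.899, limma). The 95% intervals of these 3 genes together spanned 0.749-fold to 1.23-fold under the scaling used here for the levels.

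The other beta subunits are structural and do not cut. Psmb2 had the smallest spread of all 40 genes, with a within-group SD of 0.114 and a ratio of 1.28 between the highest and lowest of the 10 livers. Its levels were 0.99, 1.03, 1.29, 1.11 and 1.07 in mulberry livers and 1.27, 1.103, 1.102, 1.34 and 1.12 in control livers. Its difference was -0.09 ± 0.12, and that of Psmb1 was -0.07 ± 0.13. Psmb4 had a difference of 0.06 ± 0.16 and Psmb3 of 0.02 ± 0.15. A second, dimmer probe of Psmb3 gave -0.06. Of the 7 constitutive beta subunits 2 had a higher and 5 a lower mean in mulberry livers, with a median difference of -0.06.

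The alpha subunits form the outer rings and the gate. Psma4, the alpha3 subunit, whose tail helps to close the gate in yeast, had the largest difference of the 40 genes. Its levels were 3.50, 3.46, 3.61, 3.82 and 3.48 in mulberry livers, against 3.58, 3.82, 3.96, 3.82 and 3.88 in control livers. Mulberry 4 lay level with control 2 and control 4. Mulberry 1, mulberry 2 and mulberry 5 lay below every control array, and mulberry 3 lay below every control array except control 1. The mean was 3.57 ± 0.15 in mulberry livers and 3.81 ± 0.14 in control livers (SD, n = 5 each). The difference of -0.24 ± 0.13 (0.847-fold) did not pass the threshold (adjusted p = 0.897, limma). The gene's second probe gave -0.25. The mean was lower in mulberry livers under each of the 28 alternative settings tried. That held for Psma3, Psmd8 and Psme3 too, and the other 36 genes changed sign under at least 1 of them.

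Psma3, the alpha7 subunit, had levels of 3.42, 3.49, 3.65, 3.92 and 3.32 in mulberry livers and 3.72, 3.37, 3.75, 4.00 and 3.78 in control livers. Control 2 and mulberry 5 were both low, so the groups overlapped, and the difference was -0.16 ± 0.16. Psma5 (alpha5) and Psma7 (alpha4) had higher means in mulberry livers, by 0.09 ± 0.17 and 0.05 ± 0.15. Of the 7 alpha subunits 2 had a higher and 5 a lower mean, with a median difference of -0.02. Psma6, the alpha1 subunit, had the smallest difference of the 40 genes, with means of 4.579 ± 0.213 in mulberry livers and 4.580 ± 0.070 in control livers (SD, n = 5 each).

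The ATPases of the 19S cap unfold the substrate and thread it into the core. Of the 6 genes 1 had a higher and 5 a lower mean in mulberry livers, with a median difference of -0.04. Psmc2 had the largest difference, at -0.09 ± 0.12, followed by Psmc6 at 0.07 ± 0.17, Psmc4 at -0.05 ± 0.14 and Psmc3 at -0.04 ± 0.14. Psmc5 had the widest range of the 6. Its levels were 2.40, 2.73, 3.47, 2.83 and 2.83 in mulberry livers and 2.98, 2.80, 2.89, 2.79 and 2.98 in control livers. The control livers lay close together, and mulberry 3 and mulberry 1 were the highest and the lowest of the 10, 2.1-fold apart. Psmc6 had the same shape, with an SD of 0.352 in mulberry livers and 0.042 in control livers.

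The non-ATPase subunits of the cap build its base and lid and hold its ubiquitin receptor and deubiquitinase. Of the 11 genes 2 had a higher and 9 a lower mean in mulberry livers, with a median difference of -0.07. Psmd8 (Rpn12), a lid subunit, had levels of 3.62, 3.81, 3.80, 3.86 and 3.65 in mulberry livers and 4.14, 3.91, 3.81, 3.90 and 3.97 in control livers. All mulberry arrays lay below the control mean of 3.95, but control 3 lay within the range of mulberry livers. The difference of -0.20 ± 0.12 (0.871-fold) had an adjusted p of 0.897 in limma. Psmd13 (Rpn9), another lid subunit, differed by -0.15 ± 0.21, with levels of 0.71, 1.24, 1.56, 1.43 and 1.46 in mulberry livers and 0.96, 1.39, 1.79, 1.26 and 1.74 in control livers. Mulberry 1 and control 1 were its lowest arrays and control 3 and control 5 its highest.

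Psmd11 (Rpn6) and Psmd1 (Rpn2), a lid subunit and a scaffold of the base, differed by -0.10 ± 0.14 and -0.09 ± 0.16. Psmd4 (Rpn10), a ubiquitin receptor, had levels of 4.59, 5.10, 5.51, 5.20 and 4.88 in mulberry livers and 5.35, 4.79, 4.92, 5.04 and 4.91 in control livers, a difference of 0.06 ± 0.18. Psmd14 (Rpn11), the deubiquitinase of the lid, had levels of 3.86, 4.21, 4.45, 4.20 and 4.01 in mulberry livers and 4.16, 4.19, 4.27, 4.07 and 4.37 in control livers, a difference of -0.07 ± 0.14. In both genes mulberry 3 was the highest array and mulberry 1 the lowest.

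The rest of the cap's partners also lay within the spread between livers. The chaperones Psmd5, Psmd9 and Psmd10, which assemble the base of the cap, differed by -0.13 ± 0.17, 0.03 ± 0.31 and 0.08 ± 0.12. Psmd9 was among the most variable genes, with levels of 2.13, 2.89, 3.29, 3.12 and 2.44 in mulberry livers and 3.74, 2.37, 2.42, 2.88 and 2.30 in control livers. Control 1 was 3.05-fold above mulberry 1, and the second probe of Psmd9 gave a difference of the other sign (-0.23). The activator Psme3 (PA28 gamma), which acts in the nucleus, differed by -0.13 ± 0.14 and Psme4 (PA200), which helps to degrade histones in the testis, by -0.06 ± 0.16. Psmc3ip, the gene that is no subunit, differed by -0.13 ± 0.33, with its second probe at 0.49, and it was well above background on 9 of 10 arrays.

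Of the tissue-restricted forms, Psmb11, the beta subunit of the thymus, was well above background on 1 of 10 arrays and was not tested. Psma8, the alpha subunit of the testis, had no probe matched here and was read from the authors' series table. Its intensities there were 137.1, 64.71, 82.16, 149.7 and 133.3 in mulberry livers and 91.06, 81.17, 106.3, 80.12 and 82.75 in control livers, in the order of that table's columns. The groups overlapped, with a difference of 0.30 ± 0.24 (adjusted p = 0.889, limma on that table).

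The order of the arrays was shared by many of the genes. Mulberry 3 was the highest of the 10 livers for 26 of the 40 genes, and mulberry 1 was the lowest for 23. Expressed as the median deviation of the 40 genes from their control means, mulberry 1 to 5 lay at -0.28, -0.03, 0.25, -0.03 and -0.16, and control 1 to 5 at 0.07, -0.10, -0.03, 0.08 and -0.03. The same median over all genes tested was -0.23, 0.07, 0.09, 0.03 and -0.14 in mulberry livers and 0.04, -0.05, 0.02, 0.01 and -0.01 in control livers. Mulberry 1 and mulberry 5 were thus low for all genes and for proteasome genes alike on this scale. After quantile normalization the proteasome median on mulberry 1 was -0.01 and on mulberry 5 it was 0, while on mulberry 3 it was still the highest of the 10, at 0.14. In the authors' series table mulberry 3 was again the highest, at 0.13. After median scaling control 4 was the highest, at 0.25, with mulberry 3 at 0.16.

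**Figure D2:**
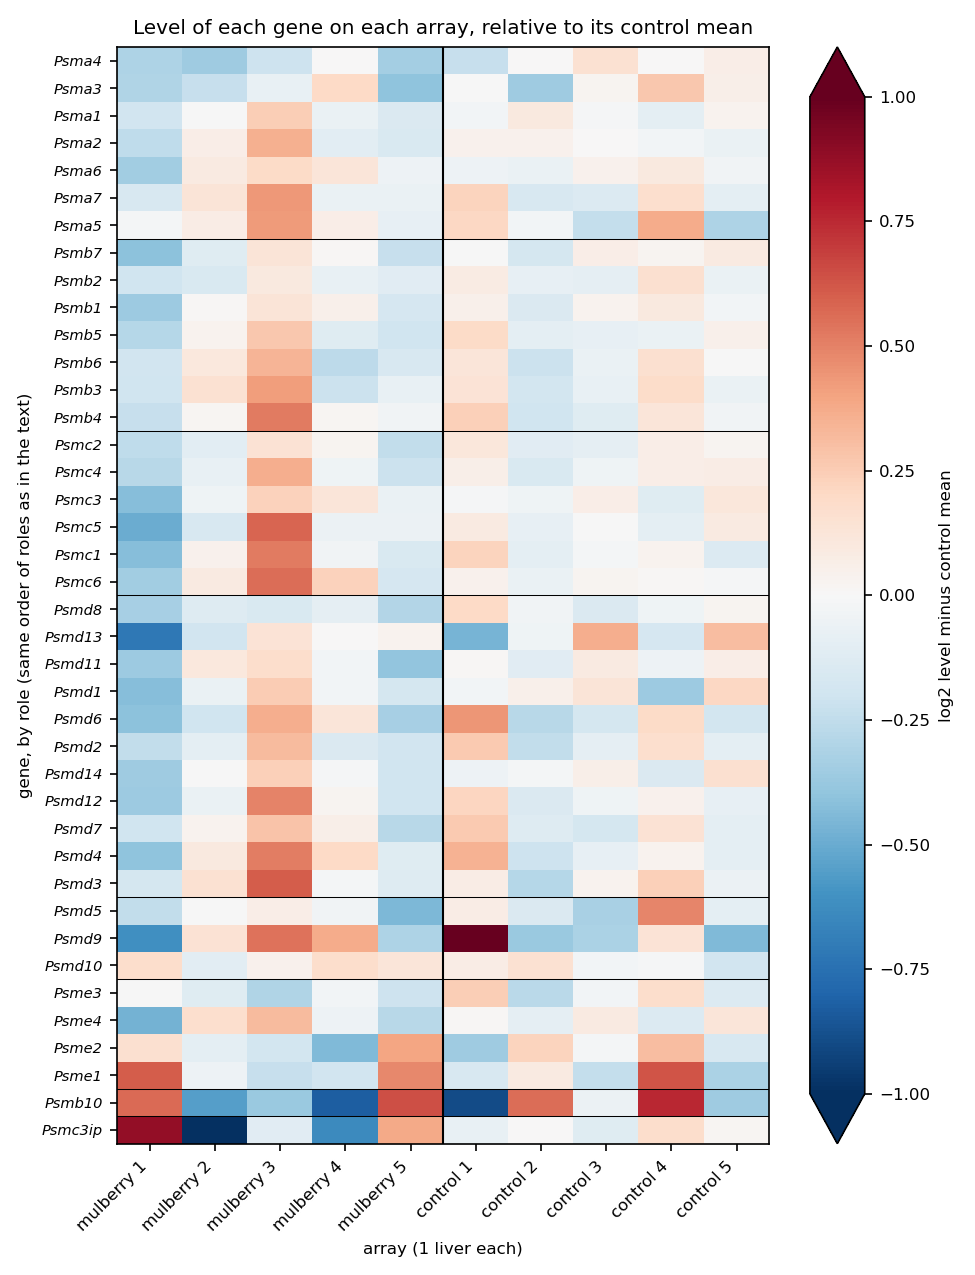
Level of each proteasome gene on each array minus that gene's control mean (colour, log2 units, red above and blue below), with genes in rows grouped by role and arrays in columns, mulberry left of control. Most constitutive subunits are blue on mulberry 1 and red on mulberry 3, while Psmb10, Psme1 and Psme2 near the bottom are red on mulberry 1 and mulberry 5.

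**Figure D3:**
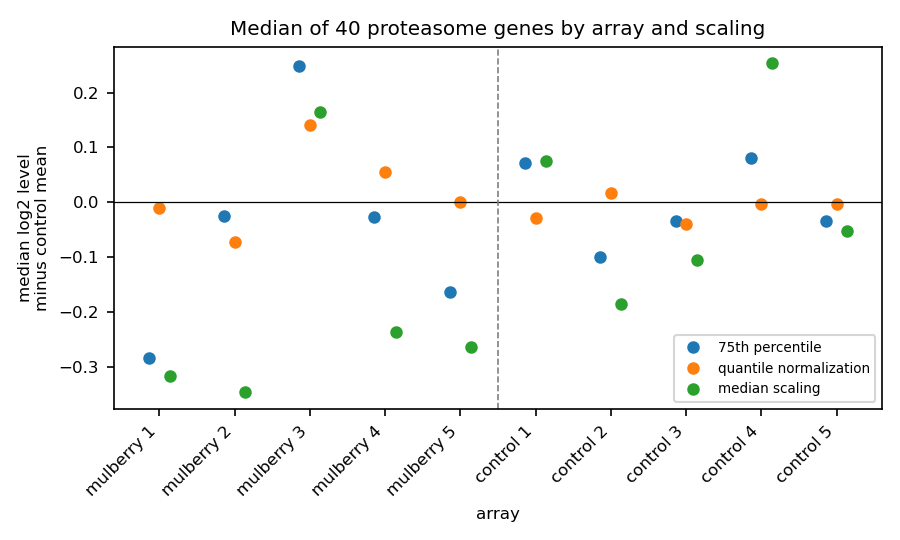
Median deviation of the 40 proteasome genes from their control means (y axis, log2 units) on each array under 3 ways of scaling the arrays. Mulberry 3 is the highest array after quantile normalization (0.14), whereas the low value of mulberry 1 on the 75th percentile scale (-0.28) is -0.01 after quantile normalization. After median scaling control 4 is the highest array (0.25), with mulberry 3 at 0.16.

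Proteasome genes varied less between livers of the same group than most genes did. Their median within-group SD was 0.218, against 0.322 over all genes tested, and 35 of the 40 lay below that value. Among genes well above background on all 10 arrays the medians were 0.216 for 39 proteasome genes and 0.305 for all 16232. The median range over the 10 arrays, in log2 units, was 0.65 for the 40 genes and 1.02 for all genes. This comparison is a description of these arrays, and genes of a complex measured on the same arrays are not independent. The compared sets were not matched to the proteasome genes for brightness.

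**Figure D4:**
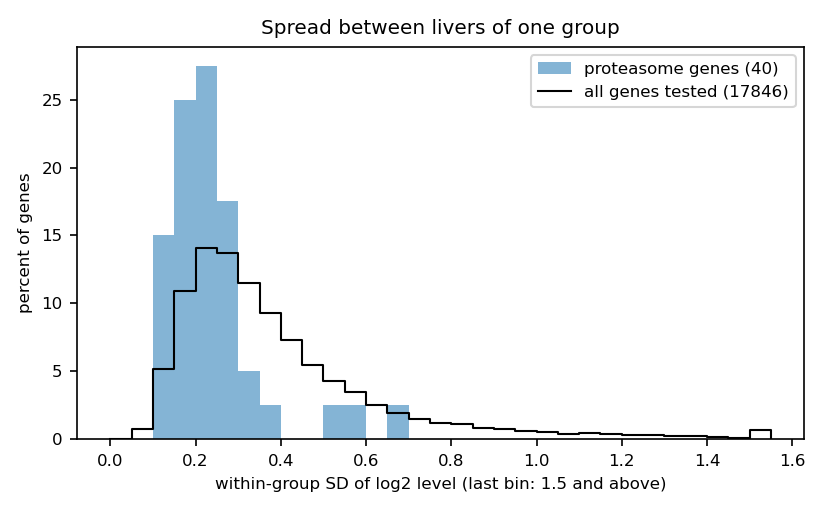
Within-group SD of the log2 level (x axis, log2 units) against the percent of genes (y axis), with bars for the 40 proteasome genes and a line for all 17846 genes tested. The median is 0.218 for proteasome genes and 0.322 for all genes, and the bars at the right include Psmb10 at 0.671.

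The interferon-inducible subunit Psmb10 (beta2i) had the largest within-group SD of the 40 genes, and among the subunits it had the widest range. Psmc3ip, which is no subunit, had a wider range still, with 4.09-fold between its highest and lowest livers. The levels of Psmb10 were 5.70, 4.59, 4.76, 4.31 and 5.78 in mulberry livers and 4.25, 5.69, 5.08, 5.89 and 4.78 in control livers. Mulberry 1, mulberry 5, control 2 and control 4 stood at 5.69 to 5.89, and the other livers were lower, so each group held both high and low livers. The highest liver, control 4, was 3.12-fold above the lowest, control 1. The means were 5.03 ± 0.67 in mulberry livers and 5.14 ± 0.67 in control livers (SD, n = 5 each), with a difference of -0.11 ± 0.38 (adjusted p = 0.964, limma). The difference was 0.09 within the first scan day and -0.20 within the second. It was -0.58 ± 0.35 without mulberry 1 and mulberry 5, with the high control 2 and control 4 kept.

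The PA28 alpha and beta genes, Psme1 and Psme2, had their highest values in the same 4 livers. Psme1 had levels of 6.16, 5.51, 5.33, 5.37 and 6.04 in mulberry livers and 5.40, 5.64, 5.32, 6.19 and 5.24 in control livers. Psme2 had levels of 6.29, 6.04, 5.95, 5.69 and 6.52 in mulberry livers and 5.78, 6.36, 6.11, 6.44 and 5.97 in control livers. In both genes the 4 highest arrays were mulberry 1, mulberry 5, control 2 and control 4, as in Psmb10. The differences between groups were 0.12 ± 0.23 for Psme1 (adjusted p = 0.938, limma) and -0.03 ± 0.19 for Psme2 (adjusted p = 0.979, limma). Without mulberry 1 and mulberry 5, and with all control arrays kept, Psme1 differed by -0.16 ± 0.22. Psme2 then differed by -0.24 ± 0.18. The second probe of Psme2 gave -0.01, and the near copy Psme2b could share its signal.

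Psmb8 and Psmb9, the inducible subunits outside the rule, peaked in those 4 livers too, with a wider range. Psmb8 (beta5i) had levels of 5.12, 2.97, 2.63, 3.02 and 5.02 in mulberry livers and 2.70, 4.12, 2.85, 4.37 and 2.60 in control livers. Psmb9 (beta1i) had levels of 4.87, 2.996, 2.54, 2.82 and 5.08 in mulberry livers and 2.96, 4.41, 2.98, 4.10 and 2.34 in control livers. Their differences were 0.42 ± 0.57 and 0.30 ± 0.58, within the spread of either group. A further fit left out mulberry 1 and mulberry 5 and kept control 2 and control 4. It gave -0.46 ± 0.42 for Psmb8 and -0.57 ± 0.44 for Psmb9. The fall follows from the removal of the highest mulberry arrays alone. On the slide that held both groups, with mulberry 1 as its only mulberry array, the differences of Psmb8 and Psmb9 were 1.59 and 1.34. The constitutive subunits that they replace, Psmb5 and Psmb6, did not peak in these livers. Over the 31 constitutive subunits the median deviation was -0.31 on mulberry 1 and -0.17 on mulberry 5, and it was -0.12 on control 2 and 0.04 on control 4. After quantile normalization Psmb10, Psme1 and Psme2 again had their 4 highest values on these arrays. The median deviation of the 40 proteasome genes was then -0.01 on mulberry 1 and 0 on mulberry 5. In the authors' series table the highest control columns of Psmb10, Psme1 and Psme2 were numbered 3 and 5, which are the columns that correlated best with the arrays of control 2 and control 4.

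As means over lists, markers of other cells and of the interferon response were high in the same livers, though not every gene of a list was. The interferon response list had 14 of 14 genes tested, and its mean deviation from the control mean was 0.67, -0.37, -0.52, -0.46 and 0.88 in mulberry 1 to 5 and -0.60, 0.70, -0.03, 0.31 and -0.38 in control 1 to 5. The macrophage list had 13 of 14 tested, with means of 2.01, -0.75, -0.72, 0.13 and 2.03 in mulberry livers and -0.42, 0.99, -0.79, 0.25 and -0.03 in control livers. The lymphocyte list had 13 of 14 tested, with means of 1.90, -0.07, -0.001, 0.13 and 1.64 in mulberry livers and -0.42, 0.72, -0.30, 0.36 and -0.35 in control livers. In all 3 lists the 4 highest arrays by this mean were those on which the inducible proteasome genes peaked. Single genes departed from it. On mulberry 1 the lymphocyte markers Cd3e, Cd4 and Cd79a and the macrophage marker Clec4f lay below their control means. In the interferon list Irf7 and Ifi44 were highest on control 3, and Isg15 was higher there than on mulberry 1 or mulberry 5. The hepatocyte list, with 11 of 14 tested, was at -1.02 on mulberry 1 and -0.35 on mulberry 5, and at -0.51 on control 2 and 0.02 on control 4.

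Summed linear levels of the lists, as multiples of the 75th percentile, overlapped between the groups. Such a sum weighs the brightest probes most, which were Ptprc in the lymphocyte list and H2-K1 and H2-D1 in the interferon list. The macrophage sum was 180 to 1110 in mulberry livers and 204 to 600 in control livers, and the lymphocyte sum was 3.05 to 23.5 in mulberry livers and 2.77 to 7.5 in control livers. The hepatocyte sum was 1450 to 3640 in mulberry livers and 2370 to 3570 in control livers, and the interferon sum was 615 to 1220 in mulberry livers and 624 to 1010 in control livers. The part of these cells and of the interferon response in the levels of Psmb10, Psme1 and Psme2 was not tested. Nor was their part in the low constitutive values of mulberry 1 and mulberry 5 on the 75th percentile scale.

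**Figure D5:**
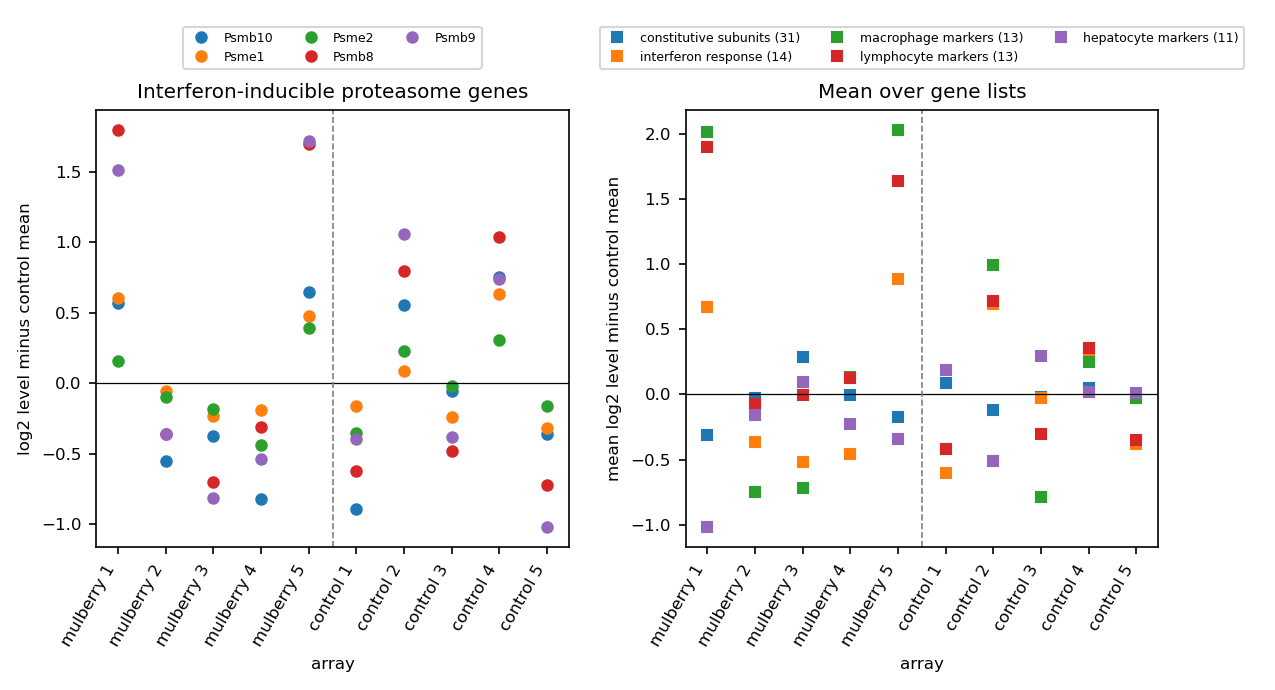
Deviation from the control mean (y axes, log2 units) on each array, mulberry left of control, for 5 interferon-inducible proteasome genes (left) and for the mean of the constitutive subunits and of 4 marker lists (right). Mulberry 1, mulberry 5, control 2 and control 4 are the 4 highest arrays for Psmb10, Psme1 and Psme2, whereas the constitutive subunits are below their control mean on mulberry 1 and mulberry 5.

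Genes that serve the proteasome were read from lists outside the rule, and none passed the threshold. At an unadjusted p under 0.05 none was found either, against 5.18% of all genes. The assembly factors of the core and the inhibitor Psmf1 had lower means in mulberry livers in 6 of 6 genes, with a median of -0.09 and the largest difference in the chaperone Psmg2 (-0.22 ± 0.13). The core assembly factor Pomp had a difference of 0.025 after quantile normalization. Of 9 proteins that bind the cap, 3 had a higher and 6 a lower mean. The largest difference was that of Zfand2a (AIRAP), an arsenite-inducible zinc finger protein. Its levels were 1.17, 1.33, 1.79, 1.44 and 1.44 in mulberry livers and 1.43, 1.27, 0.87, 1.04 and 1.02 in control livers. All mulberry arrays lay above the control mean of 1.13, while control 1 and control 2 reached into the range of mulberry livers. The difference was 0.31 ± 0.16 (adjusted p = 0.897, limma). It was 0.33 ± 0.14 after quantile normalization (adjusted p = 0.899, limma) and 0.16 ± 0.17 after median scaling. Ube3c, a ligase of the cap, differed by -0.20 ± 0.14, Adrm1 (Rpn13), a ubiquitin receptor, by -0.17 ± 0.23 and Zfand5 by 0.17 ± 0.16.

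The transcription factors of proteasome genes lay within the spread between livers. Nfe2l1 had levels of 3.81, 4.37, 4.40, 4.26 and 4.17 in mulberry livers and 4.38, 3.57, 3.93, 4.20 and 3.77 in control livers. Mulberry 1 lay low and control 1 high in their groups, and the difference was 0.23 ± 0.18. It was 0.30 ± 0.13 after quantile normalization (adjusted p = 0.899, limma) and 0.08 ± 0.20 after median scaling. Nfe2l2 (NRF2) differed by 0.08 ± 0.11, its partner Mafg by -0.26 ± 0.17, Maff by -0.12 ± 0.28 and Ngly1, the deglycosylase that processes NRF1, by -0.09 ± 0.19. Of the 6 genes 2 had a higher and 4 a lower mean, with a median of -0.06.

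Genes of ubiquitin and its activation had overlapping groups as well. The polyubiquitin gene Ubb differed by -0.01 ± 0.14. The main ubiquitin-activating enzyme Uba1 differed by -0.27 ± 0.22. Uba7, the activating enzyme of the interferon-induced modifier ISG15, differed by -0.11 ± 0.44, and its levels of 2.95 on mulberry 1 and 3.05 on mulberry 5 were the highest of the 10. Of 10 shuttle and adaptor genes 2 had a higher and 8 a lower mean. Sqstm1 (p62), the autophagy receptor, had the largest difference, at -0.27 ± 0.16, followed by Ubqln4 at -0.20 ± 0.19, Rad23b at -0.12 ± 0.16 and the unfoldase Vcp at -0.11 ± 0.14. Under the 28 alternative settings 294 of 2542 values of the genes outside the rule, markers included, had the other sign.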

How the data were processed

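Per the file headers, the deposited scanner tables held the intensity of each spot after background correction within the array. The submitters' processing notes name Agilent Feature Extraction, version 10.1.1.1. Each array used 500 ng of total RNA, per the labels' protocols. The deposited series table held linear intensity values by gene symbol, and the sources used here do not give its normalization. Its control columns are numbered differently from the scanner tables, so it was used for comparisons of groups and not for single control arrays, apart from Psma8 and the check of column numbers.

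Control spots and outlier spots were left out and 41128 probes kept, of which 61.0% matched the RefSeq gene table of GRCm38.p6 by accession. The other probes kept the transcript name given on the array and were counted as genes under it. Such names were 15342 of the 32636 before the filter on dim probes, so shares over all genes tested include transcripts without a matched symbol. Levels were log2 processed intensity minus each array's 75th percentile (152.8 to 283.3). A gene was its brightest probe, tested if 4 of the 5 arrays in either group, or all of them, read it as well above background. Groups were compared with limma 3.58.1 in R 4.3.3 (lmFit and eBayes, two-sided, Benjamini-Hochberg, threshold 0.05), checked on simulated data. The number of arrays limits the precision. Alternatives were other scalings, filters, probe rules, blocks and left-out arrays. Slide and group cannot be told apart except on the slide that held both.

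The members and lists were chosen with earlier results of these data known. Every member could be named, with fuller statistics for the catalytic and inducible subunits, the activators and up to 4 genes by absolute difference in each role and list. Plots were drawn with matplotlib 3.10.9.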

Additional observations from a re-analysis of the deposited data

Results flagged for a closer look

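In 1 of 162 sets of 5 arrays that were examined, an array stood apart by Dixon's criterion, where chance gives about 8. Psmd2 (Rpn1), the scaffold of the cap on which ubiquitin shuttles dock, had a level of 5.291 on mulberry 3, against 4.734 to 4.876 on the other mulberry arrays. The gap was 0.746 of the range of the group, above the critical value of 0.71. Mulberry 3 was also the highest array for 26 of the 40 proteasome genes. Among the control arrays Psmd2 reached 5.24 on control 1.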

How the results depend on the processing

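None of the 40 proteasome genes passed the adjusted threshold under any of 28 alternatives (27 planned and 1 added after seeing the data), and their lowest adjusted p was 0.240 (limma). Of 1119 values of single proteasome genes under the alternatives, 210 had the other sign. Over all genes, 1 passed with array weights and 1 without mulberry 1 and mulberry 5, and leaving out 1 array at a time gave 0 to 1. At an unadjusted p under 0.05 the number of proteasome genes was 2 after median scaling, 1 after normexp background correction, 3 with slide as a fixed block, 1 on slide 3 alone and 1 without mulberry 1 and mulberry 5, and 0 to 1 with 1 array left out. The median difference over proteasome genes was -0.19 after median scaling, -0.33 after normexp, 0.094 on scan day 1 alone, -0.20 on scan day 2 alone, -0.36 on slide 3 alone or with slide as a fixed block, and 0.071 without mulberry 1 and mulberry 5. With 1 array left out it ran from -0.13 to 0.007. The normexp fit did not settle on mulberry 4, whose 25th percentile was 9.68 on the log2 scale against 5.85 to 5.90 on the other arrays. Without mulberry 4 the normexp median was -0.04, with 2 genes at an unadjusted p under 0.05. With the replicate block 0 genes passed and the median was -0.04. Deviations of same-numbered arrays correlated at -0.44 to 0.41 and an array correlated best with its own number in 1 of 5 cases, which is a hint from the data and not from the design. Both rest on the scanner tables' control numbers, which differ from those of the series table, so which control liver carries which number is unresolved. The number at an unadjusted p under 0.05 over all genes was 1995 after median scaling, 2684 with array weights, 3629 with slide as a fixed block and 550 to 1307 with 1 array left out. The causes of these shifts were not tested. Slide 3 holds 1 mulberry array, which is assumed to vary like the control arrays. Dim probes such as those of Psmc3ip and Psmb11 limit what the arrays can show.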
